A study of Mus musculus with 6 samples.

Results

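The 60 genes described here lie around Trex1 on mouse chromosome 9, from Pik3r4 on the lower-coordinate side to Ano10 on the higher-coordinate side. They were chosen by their place near Trex1 with the differences between these knockout and wild-type hearts already in view, so every Trex1 KO against Trex1 WT value below is a description of chosen genes and carries no test of its own. Of the 60 genes, 58 had at least 1 probe set annotated to them alone, out of 18193 such genes on the array, and Impdh2 and Tusc2 had none. The 58 genes had 126 probe sets, of which 110 probe sets of 57 genes were bright enough to be compared. Dock3 had probe sets that were all too dim.

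RNA from heart ventricle of 6 mice was hybridised to 1 array per mouse. Every mouse lacked Rag2, a recombinase that developing T and B lymphocytes need in order to mature. In each of 3 littermate pairs (A, B and C), 1 animal carried wild-type Trex1 (Trex1 WT) and 1 was a Trex1 knockout (Trex1 KO). The sources used here do not give the age, the strain or the cells in which Trex1 was lost. Signals below are given in the order of pairs A, B and C for each genotype, and differences are Trex1 KO minus Trex1 WT on the log2(signal + 16) scale.

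Trex1 encodes the main DNA exonuclease of mammalian cells, which clears DNA from the cytosol. The genes beside it work in many different processes and were listed for their place on the chromosome. A gene disrupted in stem cells of one strain and bred into another keeps a stretch of the donor chromosome on both sides, so its neighbours can carry other alleles in knockout animals than in wild-type littermates. An array probe that spans a base difference between alleles can also read a lower signal with no change in the transcript, and probe sets of 1 gene then disagree. Linked alleles travel with the disrupted gene, so their part and that of losing Trex1 cannot be told apart in this design, and base differences under the probes were not tested. In tissue samples such as these, fewer cells of a type and less RNA per cell cannot be told apart either.

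The arrays were checked before the neighbours were compared. The probe set that the annotation gives to Trex1 and Atrip together had signals of 714, 340 and 887 in Trex1 WT and 9.45, 20.6 and 34.2 in Trex1 KO. Trex1 WT B lay between the knockouts and the other wild-type animals. It is grouped as labelled, but its genotype was not checked otherwise, and each Trex1 WT value below includes it. The 27 Bacillus subtilis control probe sets, which match nothing in the tissue, reached 69.8 at most. The 7 ventricular cardiomyocyte markers had signals between 12494 and 55847. The 3 atrial markers had signals of at most 374, the 4 skeletal muscle markers of at most 89.3 and the 4 lymphocyte markers on the array of at most 82.1. The summed macrophage, endothelial, fibroblast and erythroid markers overlapped between the groups. Adipoq, the 1 adipocyte marker with a probe set of its own, had signals of 23.7 to 36.4 in Trex1 WT and 62.5 to 549 in Trex1 KO. The Actb 3' to 5' ratio, a measure of RNA integrity, was 1.80 to 2.29 in Trex1 WT and 1.60 to 1.68 in Trex1 KO. Both of these moved with the groups, and the part of the Adipoq difference in the results below was not tested.

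Of the 110 member probe sets, 5 were lower and 0 were higher in Trex1 KO in the limma fit over all 27022 tested probe sets (Benjamini-Hochberg adjusted p under 0.05). Across all tested probe sets, 0.0259% were called lower and 0.218% higher. Because these genes were listed with this contrast known, nothing is read from that difference in shares. The 5 were the single probe sets of Pik3r4, Wdr82 and Ano10, the brightest of 3 of Parp3 and the dimmer of 2 of Alas1. At an unadjusted p under 0.05 in limma 14 were lower and 3 higher, where 1.97% of all tested probe sets were lower and 3.47% higher. The 5 calls became 2 without Trex1 WT A, without Trex1 WT C or without Trex1 KO A, 3 without Trex1 KO B or without Trex1 KO C, and 7 without Trex1 WT B. When eBayes used no intensity trend, 1 call was made, and a fit that took the Actb ratio as covariate made 0. That ratio moved with the groups, so the covariate fit cannot separate it from the genotype. With the littermate pair as a block (paired fit), 6 were lower (0.0592% of all tested probe sets) and 1 was higher (0.389%), the additions being Cmtm8, lower, and Hemk1, higher. The groups did not overlap for 17 member probe sets in the lower and 4 in the higher direction, with 4.99% and 5.57% of all tested probe sets, or 10.6% in either direction, doing so.

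Most listed genes differed little, and a few differed strongly. Taking the brightest tested probe set of each gene, the 3 Trex1 KO arrays lay all below the 3 Trex1 WT arrays for 10 of 57 genes and all above them for 3. Of all 12811 tested genes, 5.83% were entirely below and 5.03% entirely above, 10.9% together. The other 44 members overlapped. All 3 littermate pairs differed in the same direction for 27 members (47.4%) and for 31% of all tested genes. The median difference over the 57 was -0.05 against -0.02 over all tested genes. The median size of the difference was 0.122 and 0.120, so the typical member moved as little as the typical gene of the array. Sizes over 0.5 were seen in 8 members (14.0%, against 6.88% of all tested genes).

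**Figure D1:**
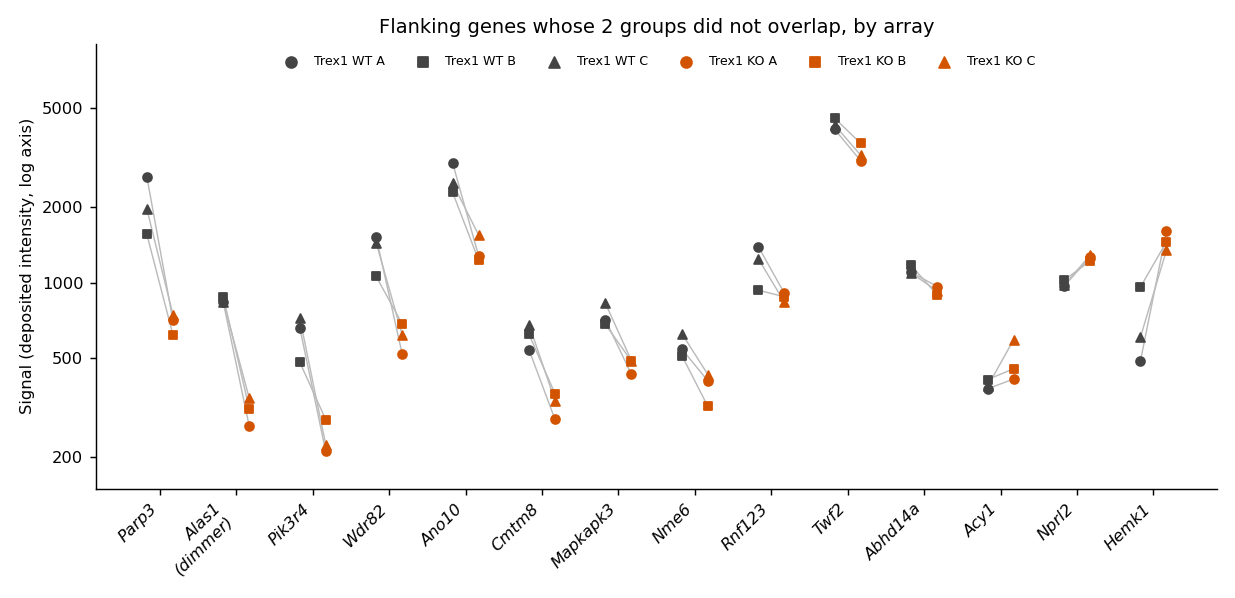
Signal of each array (deposited intensity, log axis) for the 13 flanking genes whose groups did not overlap on their brightest probe set, and for the dimmer probe set of Alas1. Grey symbols are Trex1 WT, orange symbols Trex1 KO, shapes mark the littermate pairs and lines join littermates; 3 genes were higher in all Trex1 KO arrays and the other probe sets were lower.

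Chromatin, DNA repair and cell cycle genes held both a strong fall and several flat neighbours. Of 8 members, all tested, 2 were called lower and 0 higher in limma, where 0.039% and 0.312% of all tested genes were. The members were listed with this contrast known, so nothing is read from the counts of calls in this or the later groups. Parp3, which attaches ADP-ribose to proteins at broken DNA, had signals of 2644, 1557 and 1966 in Trex1 WT and 708, 619 and 745 in Trex1 KO. All knockout values lay far below the lowest wild-type value. The log2 difference was -1.52 (SE 0.18), a 2.87-fold fall, with -1.88, -1.31 and -1.38 in the single pairs. Its other probe sets gave -0.88 and -1.04 with groups that did not overlap either, so all 3 probe sets of Parp3 pointed the same way. Their names end in _s_at or _x_at, which on this kind of array marks probes that can match more than 1 transcript, so signal from another gene cannot be set apart in them.

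Parp3 and Rrp9 start close together on opposite strands and their promoters overlap, so they are described together. Rrp9, a protein of the U3 small nucleolar particle that processes ribosomal RNA, had signals of 276, 280 and 166 in Trex1 WT and 228, 323 and 225 in Trex1 KO. The groups overlapped, and the difference was 0.11 (SE 0.24). The 250 bases before each start, from RefSeq on GRCm38.p6, are shown with the 141 bases that both promoters contain in capitals. The Parp3 stretch is chr9:106476950-106477199 on the minus strand and the Rrp9 stretch is chr9:106477059-106477308 on the plus strand.
Parp3: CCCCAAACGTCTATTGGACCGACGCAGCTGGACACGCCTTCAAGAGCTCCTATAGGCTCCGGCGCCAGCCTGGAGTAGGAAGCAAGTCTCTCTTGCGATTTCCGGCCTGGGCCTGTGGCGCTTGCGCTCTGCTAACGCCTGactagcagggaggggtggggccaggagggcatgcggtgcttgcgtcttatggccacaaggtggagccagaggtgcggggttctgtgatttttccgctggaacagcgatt
Rrp9: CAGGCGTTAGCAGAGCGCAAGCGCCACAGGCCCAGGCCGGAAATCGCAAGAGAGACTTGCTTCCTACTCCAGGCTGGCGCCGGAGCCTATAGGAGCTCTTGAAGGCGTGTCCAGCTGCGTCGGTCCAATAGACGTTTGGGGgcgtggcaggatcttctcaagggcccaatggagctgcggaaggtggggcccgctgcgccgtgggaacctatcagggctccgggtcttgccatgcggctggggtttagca
The capitals of the first are the reverse complement of those of the second. The same stretch thus lay before a gene whose probe sets read lower in Trex1 KO and before one whose groups overlapped. Whether the Parp3 transcript itself changed, or whether the shared stretch has a part in either value, was not tested.

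Wdr82, which anchors the SET1 complexes that methylate histone H3 at promoters, had signals of 1519, 1058 and 1445 in Trex1 WT and 518, 684 and 618 in Trex1 KO. The groups were well apart, with Trex1 WT B nearest to the knockouts. The log2 difference was -1.11 (SE 0.17), with -1.52, -0.62 and -1.20 in the single pairs. Wdr82 also holds the gene of the miRNA let-7g on its strand. The mature sequence from RefSeq is shown because the signal of its host gene was lower in Trex1 KO. The seed (bases 2 to 8) is in capitals, and the place is chr9:106178846-106178867 of GRCm38.p6 on the plus strand.
mmu-let-7g-5p: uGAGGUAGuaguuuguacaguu
No value for the miRNA itself was used here. For the other 6 members of the group the arrays overlapped. Setd2, a histone methyltransferase, Smarcc1, a core subunit of the BAF remodelling complex, and Rad54l2, a helicase, had log2 differences of -0.07, 0.06 and 0.08. The dimmer probe set of Rad54l2 gave -0.29, negative in all 3 pairs but with overlapping groups, so its probe sets disagreed in sign. The other tested probe sets of Smarcc1 gave -0.06 and -0.09, also with overlap. Cdc25a, a phosphatase that drives entry into S phase, gave -0.11 on its brightest probe set, and Poc1a, a centriole protein, and Traip, a ubiquitin ligase of replication, gave -0.35 and -0.31, all with overlapping groups. A dimmer probe set of Cdc25a gave -0.52, with Trex1 KO B and Trex1 KO C, at 181 and 168, between the wild-type values of 157 to 316. Traip was dim throughout, from 35.8 to 86.4, close to the highest control probe set.

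Among signalling genes, Pik3r4 fell and the rest did not pass. Of 13 members 11 were tested, with 1 lower, 0 higher and a median difference of -0.01. Pik3r4, the partner that holds the kinase Vps34 active in autophagy and endosome traffic, had signals of 661, 480 and 722 in Trex1 WT and 211, 283 and 225 in Trex1 KO. Trex1 WT B and Trex1 KO B were the closest littermates. Its 1 probe set is of the _s_at kind, with the same limit as those of Parp3. The log2 difference was -1.31 (SE 0.19), with -1.58, -0.73 and -1.62 in the single pairs.

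Mapkapk3, a kinase activated by p38, had signals of 709, 680 and 825 in Trex1 WT and 429, 485 and 487 in Trex1 KO. Its groups did not overlap, at a log2 difference of -0.64 (SE 0.14). A second probe set gave -0.84, also without overlap, although pair B contributed only -0.14 there. Nprl2, a subunit of the GATOR1 complex that restrains mTORC1, had higher signals in every knockout, 1264, 1218 and 1284 against 967, 1022 and 975, at a log2 difference of 0.34 (SE 0.11). Its head-to-head neighbour Cyb561d2, a cytochrome b561 family protein whose promoter overlaps that of Nprl2, had a difference of -0.28 with overlapping groups. Rhoa, the small GTPase that organises actin, gave -0.01 and -0.03 on its tested probe sets, and Prkar2a, a regulatory subunit of protein kinase A, and Gnai2, an inhibitory G protein subunit, gave 0.02 and -0.12. Rhoa was even across the arrays, with signals of 7089, 7312 and 6881 in Trex1 WT and 6759, 7099 and 7335 in Trex1 KO. Dusp7, a phosphatase of ERK, gave 0.29 with overlap, and Trex1 KO B and C, at 1011 and 1001, lay above all wild-type values while Trex1 KO A, at 746, did not. That probe set is of the _x_at kind. The other tested probe sets of Dusp7 gave -0.15 and 0.15 with overlap, so they disagreed in sign. Cish, an inhibitor of cytokine signalling induced through STAT5, gave -0.05, Rassf1, a tumour suppressor that binds Ras proteins, 0.10, and the inositol hexakisphosphate kinases Ip6k1 and Ip6k2 gave 0.06 and -0.19. The dimmer probe set of Ip6k2 gave 0.41, positive in all 3 pairs but with overlapping groups, so its probe sets disagreed in sign. Dock3, an exchange factor for Rac, had signals from 3.80 to 64.9, below the highest control probe set.

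Metabolism and redox genes held the strongest disagreement between probe sets and the largest higher value. Of 10 members 9 were tested. In limma 1 probe set was lower and 0 were higher, where 0.0259% and 0.218% of all tested probe sets were. Alas1, which catalyses the first and limiting step in making heme, had signals of 5756, 5464 and 6938 in Trex1 WT and 6522, 5343 and 6522 in Trex1 KO on its brightest probe set. Those groups overlapped fully, at a log2 difference of 0.02 (SE 0.12). The dimmer probe set gave 833, 876 and 839 in Trex1 WT and 266, 313 and 344 in Trex1 KO. Its groups were far apart, at a log2 difference of -1.43 (SE 0.14), and the pairs gave -1.59, -1.44 and -1.25. The dimmer probe set is of the _x_at kind. The annotation gives both probe sets to the same gene, and they differed from each other by 1.45.

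Hemk1, a methyltransferase that modifies release factors of translation, was the member with the largest higher value. Its signals were 487, 960 and 605 in Trex1 WT and 1602, 1455 and 1347 in Trex1 KO. Every knockout lay above every wild-type animal, and Trex1 WT B was the highest wild-type value. The log2 difference was 1.14 (SE 0.21), and the second probe set gave 0.72 (SE 0.15), again without overlap. The brighter one is of the _s_at kind and the second is not. It did not pass in the unpaired fit and passed with the littermate pair as a block. Nme6, of the nucleoside diphosphate kinase family, had signals of 542, 510 and 624 in Trex1 WT and 404, 320 and 429 in Trex1 KO, at a difference of -0.53 (SE 0.16). The adjacent genes Acy1, an aminoacylase, and Abhd14a, an alpha/beta hydrolase, lay apart in opposite directions, at 0.29 (SE 0.17) and -0.27 (SE 0.11). Acy1 was only just apart, with Trex1 KO A at 411 and Trex1 WT B at 409. The brightest probe set of Abhd14a is of the _s_at kind. The second probe set of Abhd14a gave 0.13 with overlapping groups. Gpx1, the glutathione peroxidase of the cytosol, gave 0.18 with overlap. Apeh, a peptidase of acylated peptides, gave 0.13 and Gmppb, which makes GDP-mannose, 0.09, both with overlap.

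Of the 8 cell surface, matrix and guidance genes, Ano10 fell and the others did not pass. Ano10, of the anoctamin family of membrane proteins, had signals of 3009, 2294 and 2497 in Trex1 WT and 1279, 1229 and 1550 in Trex1 KO. The groups were clearly apart, at a log2 difference of -0.93 (SE 0.14). Cmtm8, a tetraspanning membrane protein of the MARVEL family, had signals of 538, 620 and 678 in Trex1 WT and 283, 359 and 337 in Trex1 KO. Its 3 pairs were alike, at -0.89, -0.76 and -0.98, with a mean of -0.88 (SE 0.16), and it passed with the littermate pair as a block. Dag1, the dystroglycan that ties the cardiomyocyte cytoskeleton to laminin, gave -0.04, and Lamb2, the laminin beta 2 chain, 0.18. Hyal2, a hyaluronidase, gave -0.01, with pairs B and C at 0.61 and -0.81, so that its small mean came from opposed pairs. The secreted semaphorins Sema3b and Sema3f, which repel growing axons and vessels, gave -0.16 and 0.27. Sema3f varied more within Trex1 WT, from 245 to 725, than between the genotypes.

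The remaining groups held no call. In RNA processing and translation, 0 of 22 tested probe sets of 8 genes were called in limma, the groups overlapped on the brightest probe set of all 8, and the differences ran from -0.20 (Rbm5, a splicing regulator) to 0.11 (Rrp9). Pcbp4, which binds poly(C) stretches of RNA, gave -0.01, the helicase Dhx30 gave -0.04, and the RNA-binding proteins Rbm6 and Rbm15b gave -0.09 and -0.08. Wdr6 and Ifrd2 gave -0.08 and 0.04. Other probe sets of Rbm5 gave values up to 0.51. Among the 4 ubiquitin genes, Rnf123, a ubiquitin ligase, had signals of 1393, 932 and 1244 in Trex1 WT and 906, 877 and 836 in Trex1 KO, apart at -0.42 (SE 0.15), with only -0.09 in pair B. Arih2, a ubiquitin ligase that works with cullins, gave -0.03 on its brightest of 5 probe sets and from -0.33 to 0.17 on the others, and the groups were apart on the probe sets at -0.33 and -0.10. The ubiquitin-removing enzymes Usp4 and Usp19 gave -0.04 and 0.07. In the group of secretory pathway, traffic and cytoskeleton genes, Twf2, a twinfilin that binds actin, was apart at -0.38 (SE 0.10) and its other probe set overlapped at -0.26. The other 8 genes of that group ran from -0.23 (Map4) to 0.20 (Manf), and Tex264, a receptor for the degradation of endoplasmic reticulum, gave 0.00. Map4 stabilises microtubules, and Manf is a secreted factor induced by stress of the endoplasmic reticulum. Scap, the escort of the sterol-sensing factor SREBP, gave -0.07, Tmem115, a Golgi protein, -0.09, Mon1a, which acts in endosome maturation, 0.05, and Nicn1 -0.06.

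**Figure D2:**
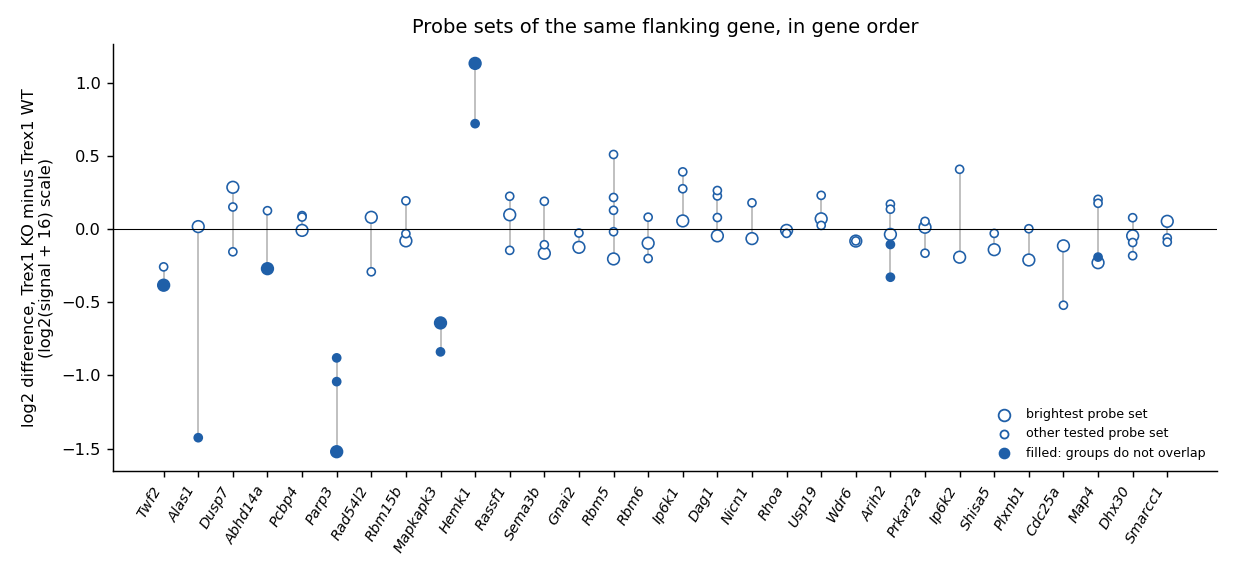
Log2 difference (Trex1 KO minus Trex1 WT, log2(signal + 16) scale) of every tested probe set for the 30 flanking genes with at least 2, in gene order; large points are the brightest probe set, and filled points have groups that do not overlap. Parp3, Mapkapk3 and Hemk1 have filled points on 1 side of 0 only, whereas the points of Alas1 lie at 0.02 and -1.43.

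Agreement between probe sets of a gene was compared across the array. Among the 30 members with at least 2 tested probe sets, the lowest and highest differences of a gene were a median of 0.297 apart, against 0.275 for all 5907 such genes. They were more than 0.5 apart in 5 members (16.7%: Alas1, Rbm5, Parp3, Ip6k2 and Arih2) and in 23.1% of all such genes. Alas1 was the 1 member over 1, where 2.98% of all such genes were. The other 27 tested members, among them Pik3r4, Wdr82, Cmtm8 and Ano10, had 1 tested probe set each, so that this check could not be made for them.

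Trex1 WT B was the wild-type animal nearest to the knockouts for most members whose groups did not overlap. Of the 13 members without overlap, Trex1 WT B was the wild-type array closest to the knockouts in 10 (76.9%), Trex1 WT A in 2 and Trex1 WT C in 1. It was the closest in 50% of the 24 such genes within 100 tested genes of Trex1 that were not members, in 43.8% of the 64 on the rest of the chromosome and in 35.9% of all 1391. Trex1 WT C was the closest in 39.1% on the rest of the chromosome and in 35.4% of all. Among genes without overlap and with a difference over 0.5, Trex1 WT B was the closest in 87.5% of members and 41.95% of all genes. For Trex1 itself, too, Trex1 WT B was the closest. Across the 13 members, the distance of Trex1 WT B from the knockout mean was a median of 68.9% of that of the other two wild-type arrays. The medians were 71.8% for the other neighbours, 74.6% on the rest of the chromosome and 96.6% over all tested genes without overlap. Over all tested genes without overlap and with a difference over 0.5, the median was 87.6%. By this measure the members lay close to the rest of chromosome 9, so nothing particular to them is read from it. Whether the genotype of this animal, whose Trex1 signal was also intermediate, has a part in it was not tested.

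**Figure D3:**
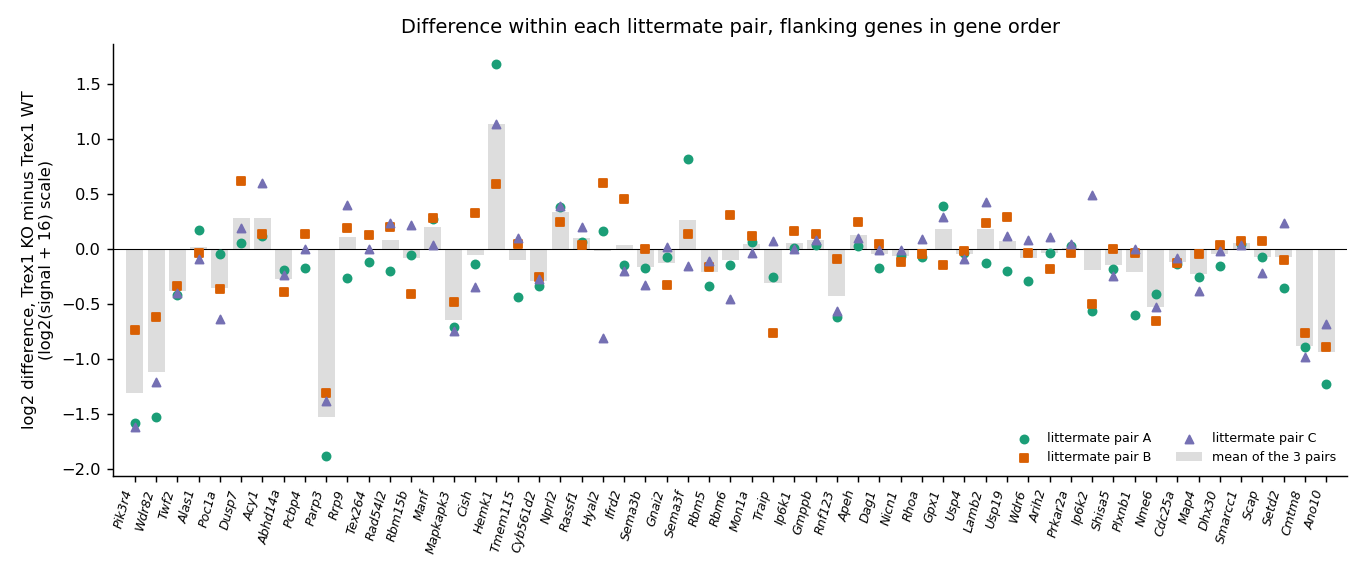
Log2 difference between littermates (Trex1 KO minus Trex1 WT, log2(signal + 16) scale) in pairs A, B and C for the brightest tested probe set of 57 flanking genes, in gene order; grey bars are the means. Pair B (orange squares) is the smallest of the 3 for Pik3r4, Wdr82, Hemk1 and Rnf123, while the 3 pairs of Cmtm8 lie between -0.76 and -0.98.

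The members that differed most were not those nearest to Trex1, but the list was chosen with values in view and covers the sides unevenly, so no trend with distance is read from it. In the gene order of GRCm38.p6, counted in tested genes, 18 members lay within 25 genes of Trex1. Of these, 1 (Nme6, 8 genes away) had groups that did not overlap, and the median size of their differences was 0.0762. Shisa5, an endoplasmic reticulum protein next to Trex1, gave -0.14 with overlap, and Plxnb1, a semaphorin receptor 3 genes away, gave -0.21 with overlap. Groups did not overlap for 4 of the 21 members 26 to 50 genes away. They did not overlap for 8 of the 18 members farther than 50, whose median size was 0.278. For comparison, groups did not overlap for 10.9% of all 12811 tested genes of the array, whose median size was 0.12. Counted over all tested genes rather than the list, groups did not overlap for 8% of the 50 genes within 25 of Trex1, with a median size of 0.153. From 26 to 50 genes away they did not overlap for 16% on the lower-coordinate side and 32% on the other, with median sizes of 0.164 and 0.24. From 51 to 100 genes away they did not overlap for 24% on the lower-coordinate side and 18% on the other, with median sizes of 0.147 and 0.102. On the higher-coordinate side, 1 of 25 genes at 26 to 50 and 1 of 50 at 51 to 100 were members. Parp3, Alas1, Wdr82 and Pik3r4 lay 59, 66, 70 and 72 genes away on the lower-coordinate side, and Ano10 lay 92 genes away on the other.

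**Figure D4:**
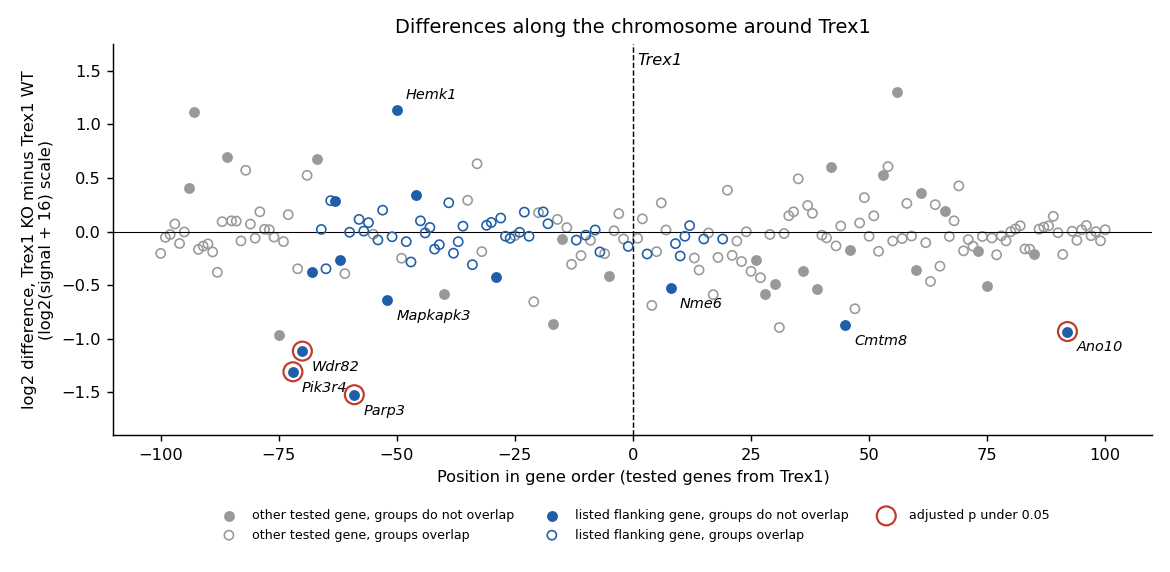
Log2 difference (Trex1 KO minus Trex1 WT, log2(signal + 16) scale) of each of the 200 tested genes within 100 genes of Trex1, by place in gene order, with negative places on the lower-coordinate side; blue marks the listed genes, filled points have groups that do not overlap, and red rings mark an adjusted p under 0.05. The 4 ringed genes lie at least 59 genes from Trex1, and listed genes next to it lie near 0.

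All tested genes around Trex1 were also counted by place alone, so as to include the neighbours outside the list. Of 200 genes within 100 tested genes of Trex1, 4 were lower and 0 higher in limma (adjusted p under 0.05), where 0.039% and 0.312% of all tested genes were. At an unadjusted p under 0.05 in limma, 22 were lower and 12 higher, where 2.26% and 3.03% of all tested genes were. All 4 were members: Pik3r4, Wdr82, Parp3 and Ano10. Groups did not overlap for 18.5% of the 200 and for 16.8% of the 143 that were not members. They did not overlap for 12.4% of the 517 tested genes on the rest of the chromosome and for 10.9% of all tested genes. Differences over 0.5 in size were seen in 14.5% of the 200 and 9.67% of the rest of the chromosome, against 6.88% of all tested genes. The count of 4 was 1 without Trex1 WT A, without Trex1 WT C or without Trex1 KO A, 2 without Trex1 KO C, 3 without Trex1 KO B and 5 without Trex1 WT B. The count of 0 was 3 without Trex1 WT B. Both eBayes without an intensity trend and the Actb ratio as a covariate ended all 4 calls. The Actb ratio did not overlap between the groups, so its part and that of the genotype cannot be told apart in that fit.

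Promoters of the members were searched for the core of the interferon-stimulated response element, because loss of Trex1 is known to induce interferon-stimulated genes. The letters searched were GAAA, any pair of bases, and GAAA again, on either strand. RefSeq promoter windows (250 bases before to 50 after the start, GRCm38.p6) were matched for 51 of the 60 members. They were present in 2 of the 67 windows (2.99%), those of Mapkapk3 and Shisa5, in 2.95% of the 13204 windows of tested genes, whose base composition was like the members' (median GC 60.3% and 60.7%), and in 3.44% of all 32851 windows of the same length.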

How the data were processed

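The authors deposited 1 linear intensity per probe set and array. The submitters' processing notes name MAS5, and the sources used here give neither its version nor its settings. Each array had a mean of 500.0 after trimming 2% at each end, so values were not scaled again. Of 45101 probe sets, 64 were controls. Symbols came from the platform annotation, updated through Entrez identifiers with RefSeq genes of GRCm38.p6 (34945 probe sets with 1 symbol, 932 with several, 9160 with none; 34741 matched). The files name no build, so that table gave only names and gene order.

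Values were analysed as log2(signal + 16). Probe sets whose mean reached the 40th percentile (signal 53.8) were tested, 27022 in all, with limma 3.58.1 in R 4.3.3 (lmFit, eBayes with an intensity trend, two-sided, Benjamini-Hochberg adjustment). The labels name the pairs as littermates, and deviations from group means correlated at 0.151, 0.193 and 0.147 within pairs and from -0.161 to 0.0101 otherwise. The unpaired fit was the main one and the pair a block in an alternative. The fit was tested on simulated data. Each gene stands by its brightest tested probe set. The members and all lists were chosen with earlier results of these data known. Named genes were those called, those whose groups did not overlap, the extremes of each role group, genes with discordant probe sets and pairs with overlapping promoters. Likeness to Parp3 over the arrays was not computed, since the arrays fall into separate groups. P-values measure the spread between 3 animals a group, each hybridised once, and this number limits the precision.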

Additional observations from a re-analysis of the deposited data

How the results depend on the processing

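Named differences kept their sign under all 14 alternatives for the 13 genes whose groups did not overlap and for the dimmer probe set of Alas1. Most of these settings could not have turned it. Leaving out 1 array or changing the pseudocount cannot turn the sign where groups do not overlap. The block, the filters and the intensity trend leave the difference as it is. Only quantile normalization and the Actb covariate could have turned it. Parp3 ran from -1.70 to -1.33, Pik3r4 from -1.81 to -1.16, Wdr82 from -1.48 to -1.01, Ano10 from -1.03 to -0.82, Hemk1 from 0.93 to 1.59 and the dimmer Alas1 probe set from -1.51 to -1.30. The pseudocount, the filters and quantile normalization left 5 member probe sets lower. With the replicate block 105 probe sets were higher and 16 lower over the table, 1 member probe set was higher and 6 were lower, and 1 of the 200 genes around Trex1 was higher. eBayes without an intensity trend gave 24 higher and 4 lower over the table, 1 lower member probe set and 0 lower genes of the 200. With the Actb ratio as a covariate, which moved with the groups, these were 18, 1, 0 and 0. Leaving out 1 array gave 33 to 85 higher and 3 to 9 lower over the table, 0 to 1 higher and 2 to 7 lower member probe sets, and 0 to 3 higher and 1 to 5 lower of the 200 genes. Of the 5 called probe sets, those of Parp3 and Alas1 passed whichever single array was left out. Fewer arrays or residual degrees of freedom were part of the leave-out and covariate settings; the cause of the other changes was not tested. Probe sets near the controls' 69.8 could hide a change.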

Other observations

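Some neighbours outside the list had differences as large as the members'. The 4 described here were chosen after their values were seen, as the largest of those within 100 tested genes of Trex1 whose groups did not overlap, and none passed the limma fit. Itga9, an integrin alpha subunit, had signals of 270, 536 and 317 in the wild-type animals of pairs A, B and C and 907, 617 and 1324 in Trex1 KO, at a log2 difference of 1.30, and the pairs gave 1.69, 0.20 and 2.01. Ephb1, an ephrin receptor, had signals of 216, 471 and 221 in Trex1 WT and 610, 701 and 598 in Trex1 KO, at 1.12. In both, Trex1 WT B was the wild-type array nearest to the knockouts. Nudt16, a nucleotide hydrolase, had signals of 305, 251 and 338 in Trex1 WT and 111, 150 and 177 in Trex1 KO, at -0.97. Trex1 WT B was the nearest for Nudt16 too. Qars, the glutamine tRNA synthetase, had signals of 3296, 4014 and 2852 in Trex1 WT and 2318, 2564 and 1043 in Trex1 KO, at -0.86, and there Trex1 WT B was the farthest from the knockouts. Itga9 lay 56 tested genes from Trex1 on the higher-coordinate side, and Ephb1, Nudt16 and Qars lay 93, 75 and 17 away on the other.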
